A study of Mus musculus with 12 samples.

Results

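The tropomyosin genes Tpm1, Tpm2, Tpm3 and Tpm4, the tropomodulin genes Tmod1, Tmod2 and Tmod3 and the leiomodin genes Lmod1 and Lmod2 are 9 of the 23423 genes in the deposited table. They were chosen by name for what their proteins do on the actin filament, and all 9 passed the filter on low values. The series measured polyadenylated RNA in 12 libraries, 6 groups of 2, of heart cells from CD1 mice at postnatal day 1.5. Fresh cardiac fibroblasts had been purified on magnetic columns for the surface protein Thy1, and fresh cardiomyocytes came from a commercial neonatal isolation kit. The other 4 groups were cultured cardiac fibroblasts collected 3 days after viral transduction. The control group received an empty or lacZ retrovirus (the labels give both names), the MGT group a retrovirus with 3 transcription factors of the heart, Mef2c, Gata4 and Tbx5, the shNT group MGT with a lentiviral non-targeting hairpin, and the shPtbp1 group MGT with a lentiviral hairpin against Ptbp1. The MGT and control groups therefore had 1 virus, and both hairpin groups had 2. No label says that the 2 libraries of a group came from separate cultures or animals, so the p-values measure the spread between these libraries, which may be technical.

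Tropomyosins are coiled-coil proteins that lie end to end along the actin filament. In striated muscle they carry the troponin complex and gate the access of myosin, and in other cells different tropomyosin isoforms mark different actin filaments. Tropomodulins cap the pointed end of the filament, where they bind tropomyosin, and leiomodins are related proteins that promote the assembly and lengthening of filaments. Tpm1, Tpm2 and Tpm3 each make several isoforms by alternative splicing, while the GENCODE annotation used here holds 1 coding transcript of Tpm4. Ptbp1, a repressor of many alternative exons, is a classic regulator of Tpm1 exons. The table holds 1 value per gene, so no result here speaks of isoforms.

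Values are given as scaled CPM: counts per 1000000 assigned reads, divided by a factor per library that makes the libraries comparable. Libraries held 49320858 to 94005212 assigned reads, and the member with the fewest reads in any library was Lmod1 with 49. Ptbp1 was 78.5 and 81.1 scaled CPM in the shPtbp1 libraries against 360 and 365 in the shNT libraries. Replicate 2 of the shPtbp1 group has a source label that names shPtbp2, whereas its title and treatment label name shPtbp1, and its Ptbp2 level was 136 scaled CPM, beside 133 in the other library of its group. The control libraries held 661 ± 23.2 (SD, n = 2) scaled CPM of Tbx5, a delivered factor, against 7.23 ± 0.415 in fresh fibroblasts and 1809 ± 54.2 with MGT. Mef2c (322 ± 12.3 against 139 ± 0.811) and Gata4 (358 ± 24.1 against 219 ± 1.03) were also higher in the control libraries than in fresh fibroblasts. The part of these levels in the comparison of MGT with control was not tested. Of the markers, the 6 cardiomyocyte genes summed to 10608–11070 scaled CPM in fresh cardiomyocytes and to 1190–1221 in fresh fibroblasts, and the 8 fibroblast genes to 9115–9176 and 17698–18185. The 6 endothelial genes summed to 3291–3300 in fresh cardiomyocytes, 2635–2689 in fresh fibroblasts and 75.9–110 at day 3, with none of them at 0. Markers of several cell types were thus present in all fresh libraries, and in bulk RNA fewer cells of a type and less RNA per cell cannot be told apart.

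Tpm1 codes for the main tropomyosin of the heart and is used in most other cells as well. It lies on the minus strand of chromosome 9 at 67022590–67049406 (GRCm38, GENCODE). Its level was 433 and 447 scaled CPM in the fresh fibroblast libraries and 1635 and 1579 in the fresh cardiomyocyte libraries. In the day 3 libraries it was 2727 and 2539 with control vector, 3063 and 3217 in the MGT group, 2360 and 2428 in the shNT group, and 3345 and 3383 in the shPtbp1 group. All 8 day 3 libraries were above both fresh cardiomyocyte libraries, and no neighbouring groups in this order overlapped. The highest library was 7.82 times the lowest.

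The alternative exons of Tpm1 show what a value per gene leaves out. The annotation holds pairs of coding exons of equal length that lie side by side and are seldom held together by a transcript. Here 2 such pairs are printed from the transcript sequences, 5′ to 3′ on the gene's strand, with capitals at the bases that differ within the pair. Of the 16 coding transcripts, 3 hold the upstream exon of the first pair, the one that smooth muscle cells prefer, 8 hold its downstream partner and 1 holds both.
First pair, upstream exon, chr9:67048124-67048249, minus strand: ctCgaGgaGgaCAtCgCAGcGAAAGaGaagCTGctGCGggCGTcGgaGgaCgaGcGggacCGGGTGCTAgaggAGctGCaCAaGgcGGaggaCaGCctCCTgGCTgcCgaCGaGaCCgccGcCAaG
First pair, downstream exon, chr9:67047786-67047911, minus strand: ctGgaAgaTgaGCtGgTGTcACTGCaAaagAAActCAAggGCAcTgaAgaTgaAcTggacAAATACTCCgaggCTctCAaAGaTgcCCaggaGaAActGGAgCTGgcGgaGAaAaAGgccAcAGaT
These exons of 126 bases differ at 66 positions and are 47.6% identical. The exons of the second pair are 76 bases long, differ at 33 positions and are 56.6% identical, and 6 and 10 of the 16 coding transcripts hold them, none with both.
Second pair, upstream exon, chr9:67032466-67032541, minus strand: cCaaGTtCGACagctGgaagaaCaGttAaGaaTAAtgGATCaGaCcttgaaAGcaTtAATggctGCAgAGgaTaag
Second pair, downstream exon, chr9:67031951-67032026, minus strand: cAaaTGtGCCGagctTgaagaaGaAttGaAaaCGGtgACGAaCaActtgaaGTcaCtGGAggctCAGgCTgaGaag
Reads over either exon of a pair count alike towards the 1 value of Tpm1 per library, which therefore does not show which exon was used.

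Tpm2 codes for the tropomyosin known as beta in skeletal muscle, which is also abundant in smooth muscle and in stress fibres. It is on chromosome 4 at 43514711–43523765, minus strand. Tpm2 was 126 and 123 scaled CPM in fresh fibroblasts and 77.7 and 75.2 in fresh cardiomyocytes, the lowest group. It was 642 and 592 with control vector, 630 and 681 with MGT and 652 and 683 with MGT and shNT, and these 3 groups overlapped. In the shPtbp1 group it was 421 and 425, below all 6 other day 3 libraries. Over the 12 libraries Tpm2 spanned a ratio of 9.08.

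Tpm3 and Tpm4 code for tropomyosins found in nearly all cells, and both genes varied less. Tpm3 (chromosome 3, 90072649–90100902, plus strand) spanned a ratio of 1.73, from 379 scaled CPM in a fresh cardiomyocyte library to 656 in an MGT library. The MGT and shPtbp1 groups of Tpm3 overlapped, and the other neighbours in its order did not. Tpm4 (chromosome 8, 72134975–72153142, plus strand) spanned a ratio of 2.34, from 700.3 and 706 in fresh cardiomyocytes and 741 and 731 in fresh fibroblasts to 1629 and 1637 with MGT and shNT. All 8 day 3 libraries of Tpm4 were at 1300.2 or more. A near-identical copy, Tpm3-rs7, matches Tpm3 over 2108 bases at 99.1% identity, and the pseudogene Gm7809 matches Tpm4 over 743 bases at 96.8%, so both values are uncertain as far as reads could be lost to a copy.

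**Figure D1:**
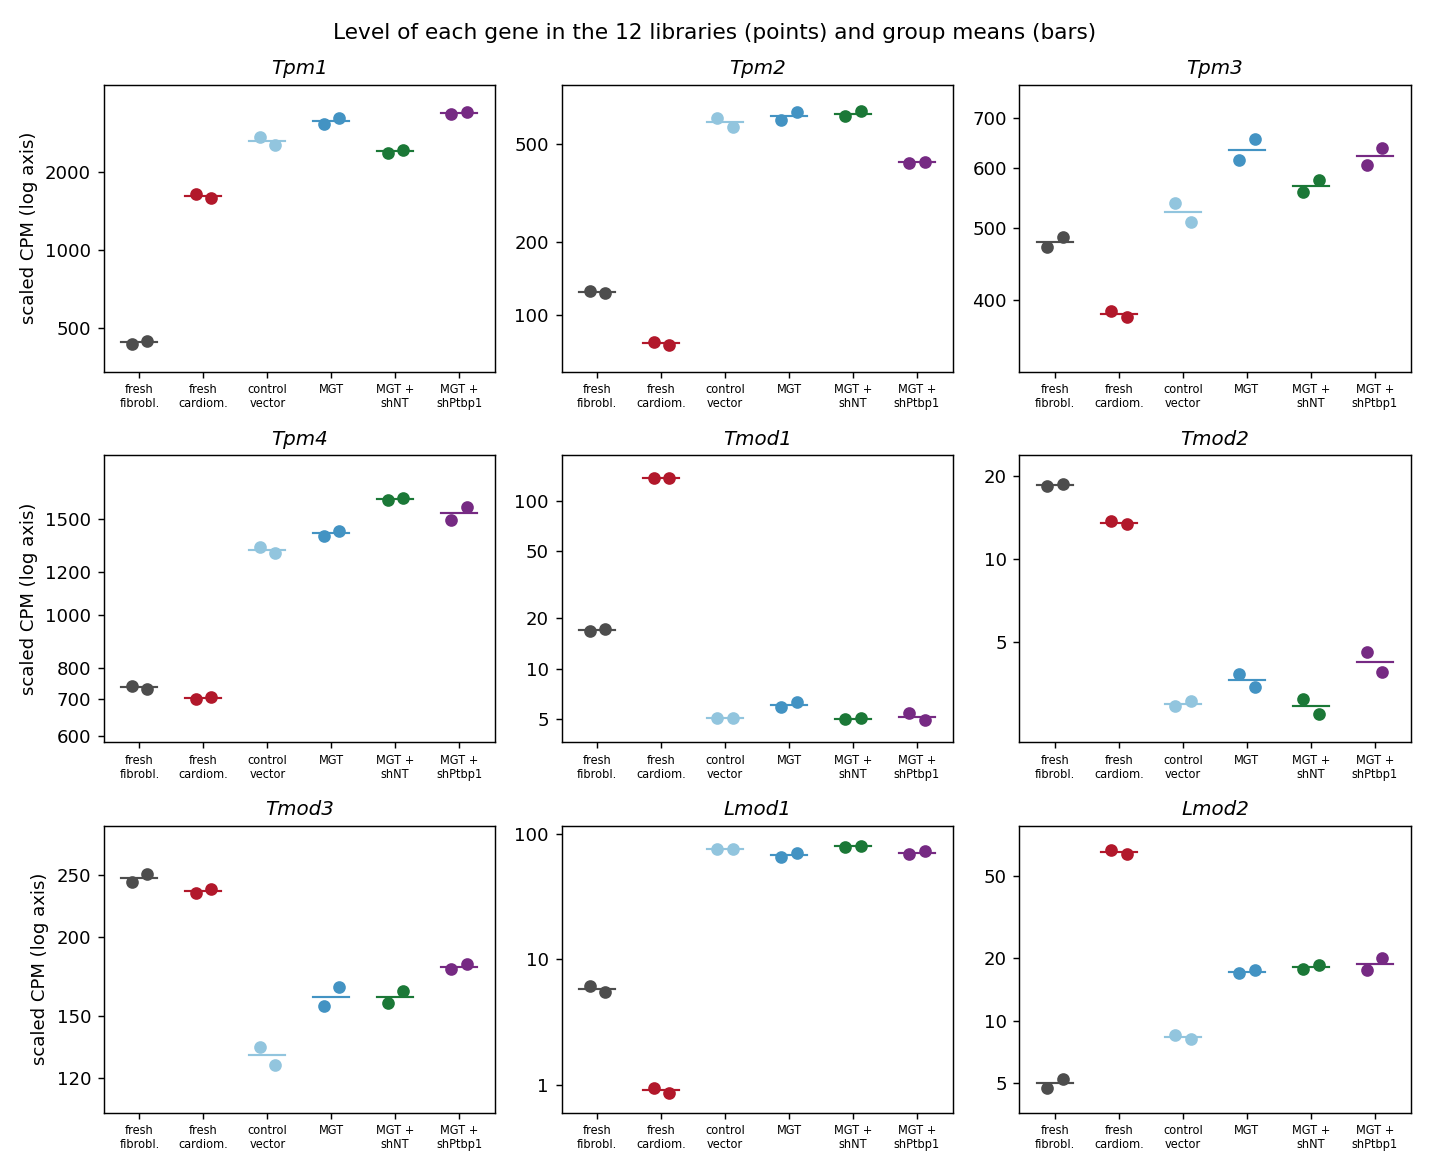
Scaled CPM on log axes for the 9 genes, with 1 point per library and a bar at the mean of each group of 2. The tropomyosin and leiomodin genes stood higher in all day 3 libraries than in fresh fibroblasts, Tpm3 only slightly, while Tmod1, Tmod2 and Tmod3 stood lower.

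Levels of different genes were compared per kilobase of merged exons. On that scale Tpm4 made up 63.8% ± 0.51 (SD, n = 2) of the summed tropomyosin level in fresh fibroblasts, and Tpm1 made up 12.95% ± 0.3. In fresh cardiomyocytes the share of Tpm1 was 37.8% ± 0.603 and that of Tpm4 48.6% ± 0.698. The share of Tpm1 at day 3 was 31.2% ± 0.478 with control vector, 33.3% ± 0.159 in the MGT group, 25.8% ± 0.159 in the shNT group and 35.4% ± 0.581 in the shPtbp1 group. The share of Tpm2 was 16.3% ± 0.358, 15.5% ± 0.381 and 16.0% ± 0.303 in the first 3 of these groups and 9.93% ± 0.184 with shPtbp1. These shares were not tested, and their size depends on the length used: per kilobase of the longest coding transcript Tpm1 was 50.9% in fresh cardiomyocytes and above Tpm4 in every group other than fresh fibroblasts, where it was 19.8% and Tpm4 44.9%. So Tpm4 was above Tpm1 in fresh fibroblasts by either length, and in the other groups their order flipped with it. The summed scaled CPM of the 4 genes, which is not divided by length, was 1771–1787 in fresh fibroblasts and 2739–2800 in fresh cardiomyocytes. At day 3 this sum was 4940–5240 with control vector, 5706–5982 with MGT, 5199–5327 with shNT and 5867–6027 with shPtbp1. The MGT and shPtbp1 ranges overlap, as do the control and shNT ranges, and the sums were not tested.

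**Figure D2:**
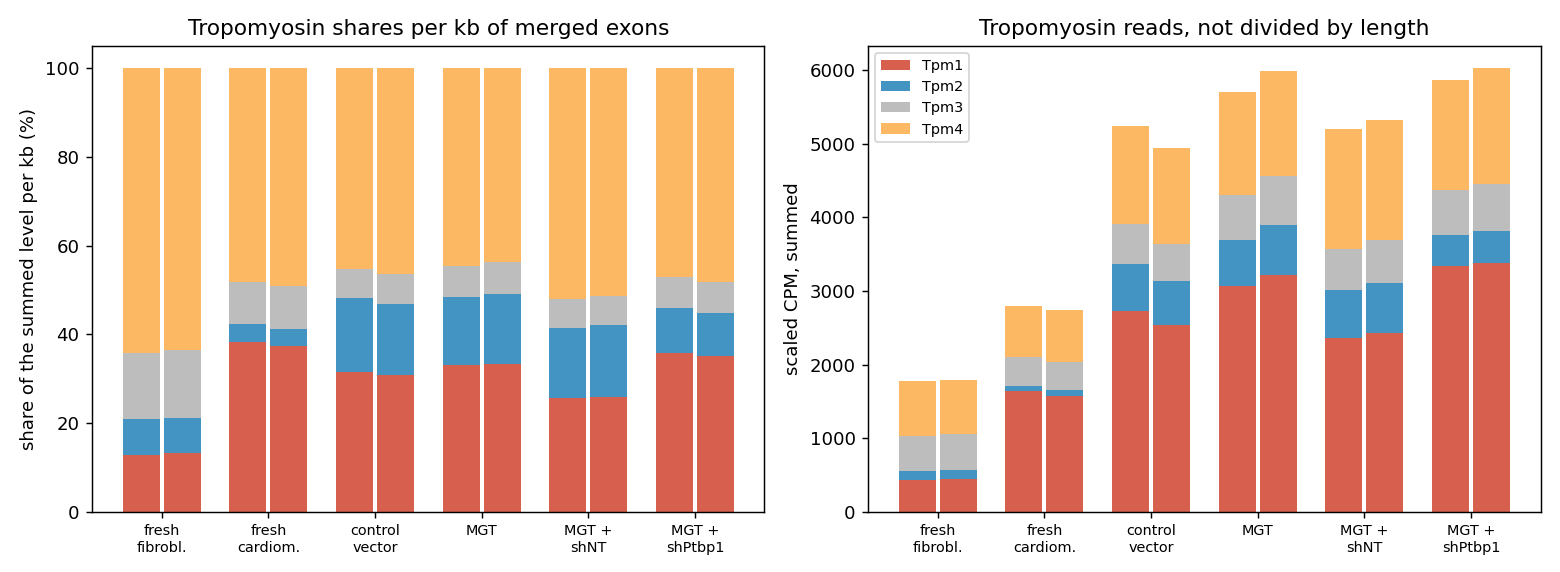
Left, the share in percent of each tropomyosin gene in the summed level per kilobase of merged exons, with 1 bar per library; right, the scaled CPM of the same genes stacked without division by length. The Tpm2 share is 9.93% in the shPtbp1 group and 15.5% to 16.3% in the other day 3 groups.

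Tmod1 codes for the tropomodulin of striated muscle and red blood cells. It is on chromosome 4 at 46038935–46116032, plus strand. Tmod1 was 136 and 137 scaled CPM in the fresh cardiomyocyte libraries and 16.7 and 17.2 in the fresh fibroblast libraries. The 8 day 3 libraries lay between 4.95 and 6.29, and all were under the fresh libraries. At day 3 only the MGT group stood clear of its neighbours, and the control, shNT and shPtbp1 groups overlapped. Of the merged exon bases of Tmod1, 32.6% overlap Tstd2 on the opposite strand. The strand setting of the counting is not given in the sources used here; Tstd2 itself was 21.2 ± 1.38 scaled CPM in fresh cardiomyocytes and 33.2 to 36.0 on average at day 3, the reverse order to Tmod1. The 3 red blood cell markers measured summed to 32.9–33.7 scaled CPM in fresh cardiomyocytes, 4.72–4.92 in fresh fibroblasts and 0 to 0.126 at day 3, where Slc4a1 was at 0 in 3 of the 4 groups, and their part in the Tmod1 levels was not tested.

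Tmod2, the tropomodulin best known from neurons, was low throughout. It was 18.3 and 18.7 scaled CPM in fresh fibroblasts, 13.7 and 13.4 in fresh cardiomyocytes and 2.76 to 4.63 in the day 3 libraries. Tmod3 codes for the tropomodulin of most cell types. It was 244 and 251 in fresh fibroblasts, 234 and 238 in fresh cardiomyocytes, 134 and 126 with control vector and 178 and 181 with shPtbp1. The MGT and shNT groups of Tmod3 lay between these last groups, at 156 and 166 and at 157 and 165, and overlapped. Per kilobase of merged exons Tmod3 held 79.1% ± 0.0348 of the summed tropomodulin level in fresh fibroblasts and 88.3% to 90.6% on average at day 3. In fresh cardiomyocytes Tmod1 held 60.8% ± 0.0462 and Tmod3 37.1% ± 0.0939, an order that flipped per kilobase of the longest coding transcript, with Tmod1 at 39.7%.

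Lmod1 codes for the leiomodin of smooth muscle and Lmod2 for that of the heart. Lmod1 (chromosome 1, 135324807–135368065, plus strand) was 6.18 and 5.52 scaled CPM in fresh fibroblasts, 0.952 and 0.869 in fresh cardiomyocytes and 65.5 to 80.3 in the day 3 libraries. It had the widest span of the 9 genes, with a ratio of 92.5 between the highest and the lowest library. Lmod2 (chromosome 6, 24597762–24605414, plus strand) was 66.7 and 63.8 in fresh cardiomyocytes and 4.7 and 5.23 in fresh fibroblasts. It was 8.48 and 8.18 with control vector, 16.9 and 17.6 with MGT, 17.7 and 18.6 with shNT and 17.6 and 20.04 with shPtbp1. The fresh cardiomyocyte libraries were thus the lowest for Lmod1 and the highest for Lmod2. Per kilobase, Lmod2 was 140 and 147 times Lmod1 in fresh cardiomyocytes, 1.52 and 1.89 times in fresh fibroblasts, 0.222 and 0.215 times with control vector and 0.516 and 0.503 times with MGT.

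Because the leiomodin genes differed this much between the same libraries, the sequences before their starts are shown. Each run is the first 240 of the 250 bases before the start in RefSeq (GRCm38.p6, plus strand), with motif matches in capitals.
Lmod1, chr1:135324563-135324802: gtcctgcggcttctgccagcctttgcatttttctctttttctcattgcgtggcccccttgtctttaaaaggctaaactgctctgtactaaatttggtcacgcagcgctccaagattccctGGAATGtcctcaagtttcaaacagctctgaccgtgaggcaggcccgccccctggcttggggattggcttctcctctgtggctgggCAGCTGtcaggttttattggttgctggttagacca
Lmod2, chr6:24597521-24597760: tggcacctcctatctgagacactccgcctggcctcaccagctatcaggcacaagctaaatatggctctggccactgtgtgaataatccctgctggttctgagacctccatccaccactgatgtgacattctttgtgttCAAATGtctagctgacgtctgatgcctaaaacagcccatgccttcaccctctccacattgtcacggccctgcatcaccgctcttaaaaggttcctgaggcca
The motifs searched on both strands were the MCAT motif GGAATG, the GATA motif AGATAA, the T-box motif AGGTGNGA and the E-box CANNTG. The CArG box of SRF, CCWWWWWWGG, and the MEF2 site, YTAWWWWTAR, were searched as well. In these letters W is A or T, Y is C or T, R is A or G and N is any base. Only exact matches counted, and near matches were not searched. In the 250 bases Lmod1 held an MCAT match at position -130 and an E-box at -45, and Lmod2 held an E-box at -112. Among 32851 RefSeq promoter windows of this length, 12.6% held the MCAT motif and 66.2% the E-box. The GATA motif (9.99% of windows), the T-box motif (4.66%), the CArG box (1.47%) and the MEF2 site (2.92%) had no match in either leiomodin window. Among the other members an MCAT match stood at -56 from the RefSeq start of Tpm1 and at -163 from that of Tmod1. A GATA match stood at -32 from a RefSeq start of Tpm3. By the GENCODE positions given above, the Tpm1 and Tmod1 matches lie inside the gene. These matches describe letters in the windows, and no binding was measured.

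**Figure D3:**
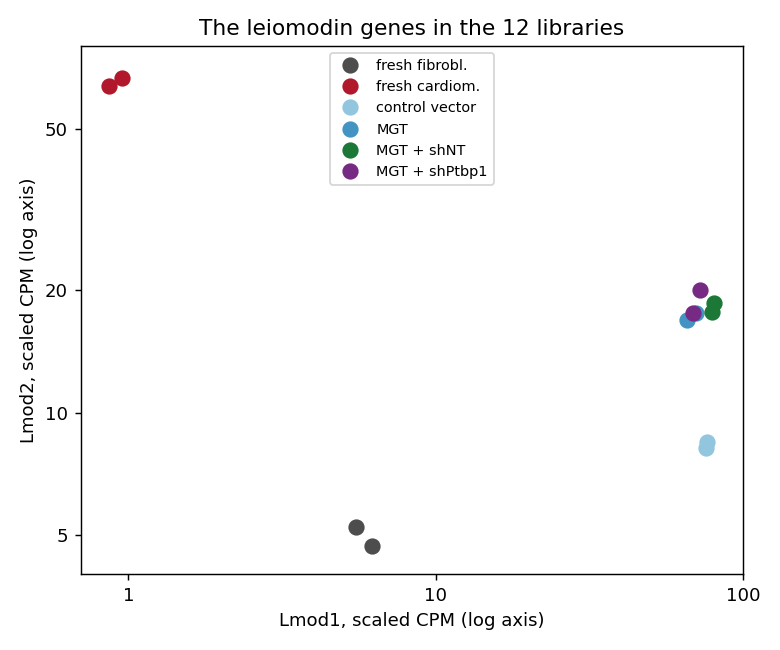
Lmod1 against Lmod2 in scaled CPM, both on log axes, with 1 point per library. The fresh cardiomyocyte libraries sit at the lowest Lmod1 and the highest Lmod2, and the MGT libraries, at 67.8 for Lmod1 and 17.3 for Lmod2 on average, lie at a higher Lmod2 level than the control libraries, at 76.0 and 8.33.

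In fresh cardiomyocytes against fresh fibroblasts, the reference comparison of the series, Tpm1, Tmod1 and Lmod2 were higher and Tpm2, Tpm3, Tmod2 and Lmod1 lower. These are 7 of the 9 genes at an adjusted p below 0.05 (limma, Benjamini-Hochberg over 13977 genes), where 76.9% of all genes tested passed (35.2% higher and 41.7% lower), so the count is near the background. Fold changes here and below are differences of log2(scaled CPM + 0.5), which understate the change of low genes. The largest increase was that of Lmod2, at 3.59 ± 0.0726 (SE, adjusted p = 1.9e-18), followed by Tmod1 at 2.98 ± 0.0718 (adjusted p = 1.97e-17) and Tpm1 at 1.87 ± 0.0476 (adjusted p = 4.79e-17). Lmod1 changed by -2.17 ± 0.0604 (adjusted p = 1.73e-16), a value that ranged from -2.72 to -1.43 with the pseudocount. Tpm2 changed by -0.70, Tmod2 by -0.44 and Tpm3 by -0.32. Tpm4 (-0.07, adjusted p = 0.136) and Tmod3 (-0.07, adjusted p = 0.123) did not pass. Both were called lower in a fit of only the 4 libraries compared (adjusted p = 0.00684 and 0.0128 by limma), and Tpm4 also with quantile normalization, at -0.22 (adjusted p = 1.1e-05).

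The striated muscle partners of these proteins on the thin filament, a list with 13 of its 14 genes tested, had 9 higher and 2 lower in fresh cardiomyocytes. Its median log2 fold change was 2.87 against -0.05 over all genes tested. Tnni1, a troponin I, was 569 ± 24.8 scaled CPM against 42.3 ± 3.62, Tnnc1, the cardiac troponin C, 752 ± 13.4 against 57.5 ± 0.321, and Lmod3, the third leiomodin, 22.7 ± 0.19 against 1.39 ± 0.127. Of the 14 actin filament genes of smooth muscle and other cells, 12 were lower and 1 higher, among them Myh11, the smooth muscle myosin, at 31.01 ± 0.485 against 162 ± 4.35. Of 16 genes for capping, severing and assembly, 9 were higher and 7 lower, and Fhod3, a formin of the sarcomere, was 109 ± 4.34 against 13.4 ± 0.471.

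All 9 genes differed between control cultures at day 3 and fresh fibroblasts, a comparison of cultured, transduced cells with cells that were never plated. Lmod1, Tpm1, Tpm2, Tpm4, Lmod2 and Tpm3 were higher and Tmod2, Tmod1 and Tmod3 lower, in a comparison where 86.9% of all genes passed (43.5% higher and 43.4% lower). Lmod1 rose by 3.59 ± 0.0604 (adjusted p = 1.68e-20 by limma), Tpm1 by 2.58 ± 0.0476, Tpm2 by 2.31 ± 0.0433, Tpm4 by 0.84 ± 0.0395 and Lmod2 by 0.69 ± 0.0726. All 3 tropomodulin genes moved the other way, Tmod2 by -2.44 ± 0.0975, Tmod1 by -1.65 ± 0.0718 and Tmod3 by -0.93 ± 0.0405. Tpm3 passed at 0.13 (adjusted p = 0.00805), but this call did not hold: quantile normalization gave -0.11 and called it lower, and it was 0.02 and not called without further scaling, which shifts the median of all genes by -0.11. It was also not called without replicate 1 of the control group (0.09) or of the fresh fibroblasts (0.11).

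Beside these changes, the 7 smooth muscle markers summed to 8103–8344 scaled CPM in control cultures and 1267–1288 in fresh fibroblasts, with 5 of them higher and 2 lower. The 5 macrophage markers measured summed to 2986–3210 and 677–678. The part of other cell types in the changes of the members was not tested. Of the 14 actin filament genes of smooth muscle and other cells, 9 were higher and 5 lower, with a median of 1.23. Tagln, a calponin-related protein of smooth muscle, was 2027 ± 9.45 against 113 ± 1.56, and Acta2, smooth muscle actin, was 5499 ± 167 against 498 ± 9.63, and these make up most of the marker sum. Among the lower were Myh11, at 32.0 ± 0.833 against 162 ± 4.35, and Mylk, the myosin light chain kinase, at 110 ± 6.58 against 150 ± 4.74. Of the 13 striated muscle partners 2 were higher and 9 lower, and Tnni3, the cardiac troponin I, was 8.23 ± 0.783 against 71.0 ± 1.64. The 2 higher were Tnnt2, the cardiac troponin T, at 2305 ± 167 against 186 ± 5.65, and Tnni2, a skeletal troponin I, at 1.76 ± 0.276 against 0.916 ± 0.0691. Of the 16 genes for capping, severing and assembly, 13 were higher, with Cap1 at 795 ± 23.7 against 302 ± 0.712, and 3 lower, with the severing protein Gsn at 314 ± 11.1 against 1233 ± 9.74.

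**Figure D4:**
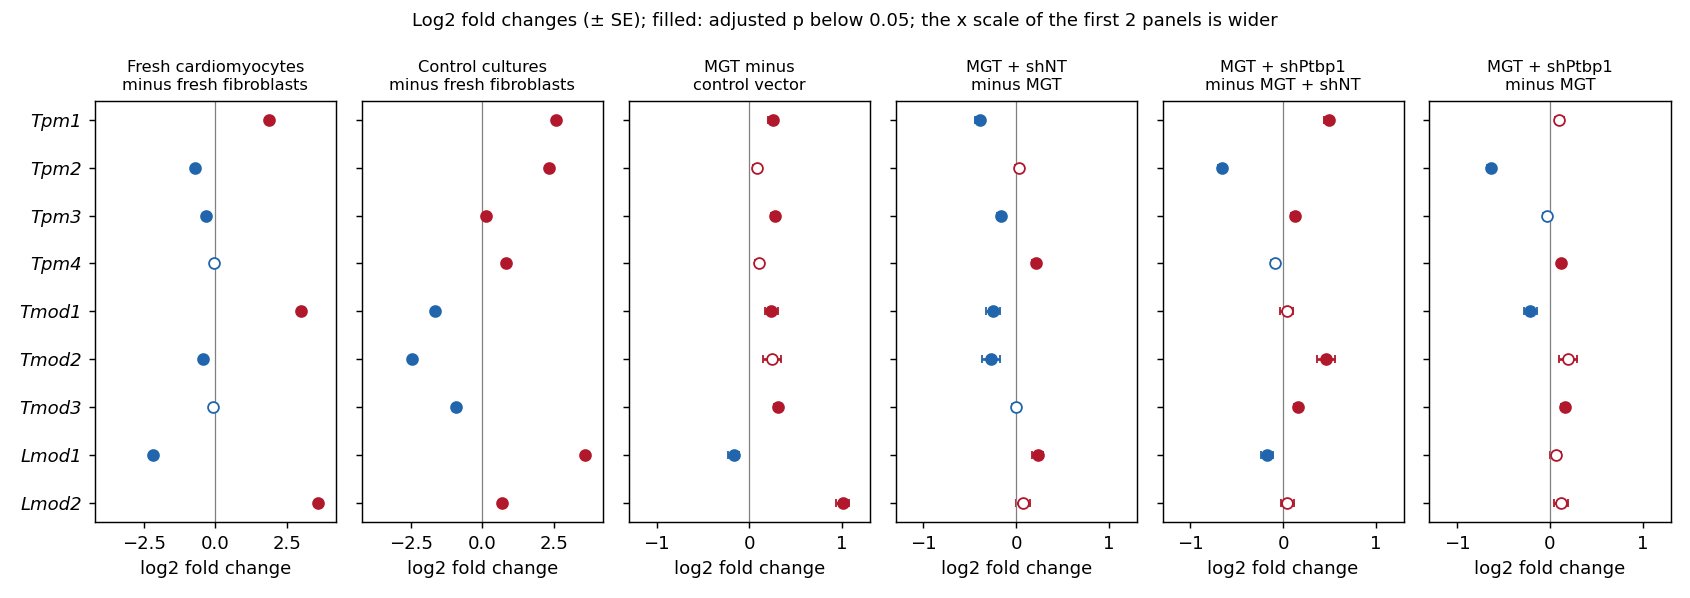
Log2 fold changes with their SE for the 9 genes in the 6 comparisons, on the log2(scaled CPM + 0.5) scale; filled points passed an adjusted p below 0.05 and open points did not. The first 2 panels have a wider axis, and in the shPtbp1 comparisons Tpm2 is the member farthest below 0.

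MGT against control vector asks what the reprogramming factors do by day 3. Lmod2 rose by 1.01 ± 0.0726 (adjusted p = 4.1e-09 by limma), from 8.33 ± 0.218 to 17.3 ± 0.511 scaled CPM, and was the only member changed by at least 2-fold. Tmod3 rose by 0.31 ± 0.0405, Tpm3 by 0.28 ± 0.0423 and Tpm1 by 0.25 ± 0.0476 (adjusted p = 8.83e-06, 4.38e-05 and 0.000346 by limma). In all, 5 of the 9 genes were higher and 1 lower, while 35.6% of all genes passed (17.9% higher and 17.7% lower). The call of Tmod1 (0.24, adjusted p = 0.0142) was lost without MGT replicate 2 (0.19) and that of Lmod1 (-0.17, adjusted p = 0.039) without MGT replicate 1 (-0.12) or without control replicate 1 (-0.16) or 2 (-0.17). Tmod2 (0.24), Tpm4 (0.10, adjusted p = 0.0502) and Tpm2 (0.09) did not pass. Tpm2 did pass without MGT replicate 1 (0.14) or control replicate 1 (0.15), and Tpm4 without control replicate 1 (0.12). With all libraries kept, Tpm4 also passed by edgeR, with a pseudocount of 2 or with a filter at 5 CPM (0.10 in each). Tmod2 passed with that filter too (0.24). The call of Tmod1 was also lost in a fit of only the 4 libraries compared, and that of Lmod1 with a pseudocount of 0.1 or no filter.

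Lmod2 in the MGT cells, at 17.3 ± 0.511 scaled CPM, was below the 65.2 ± 2.08 of fresh cardiomyocytes. Tmod1 in the same cells was 6.08 ± 0.298 against 137 ± 0.963, and below fresh fibroblasts too. Of the 13 striated muscle partners 6 were higher with MGT and none lower, with a median of 0.32: Tnni3 was 20.4 ± 2.09 against 8.23 ± 0.783, and Actc1, cardiac actin, 229 ± 3.71 against 98.8 ± 6.63. All 6 cardiomyocyte markers were higher, summing to 3574–3767 against 2470–2660 scaled CPM. Tnnt2 made up most of both sums, at 3151 ± 128 against 2305 ± 167. Among the actin filament genes of smooth muscle and other cells 2 were higher and 6 lower, with Cnn1, a calponin, at 38.1 ± 0.394 against 54.6 ± 1.98. Fhod3 (173 ± 0.296 against 105 ± 0.0286) and Cap2 (38.6 ± 1.24 against 21.4 ± 1.17) led the 8 higher of 16 genes for capping, severing and assembly, of which 1 was lower.

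Adding the non-targeting hairpin lentivirus to MGT serves as the control for the Ptbp1 hairpin, and members differed between the shNT and MGT groups as well. Tpm1 fell by 0.39 on the log2 scale (SE 0.0476, adjusted p = 1.76e-06 by limma) and Tpm4 rose by 0.21 ± 0.0395 (adjusted p = 0.00026). In all, 2 members were higher and 4 lower, while 44.7% of all genes passed (24.6% higher and 20.1% lower). The other 4 calls were each lost when a single library was left out: Tpm3 (-0.16; -0.12 without MGT replicate 2 and -0.13 without shNT replicate 1), Tmod1 (-0.25; -0.20 without MGT replicate 2), Tmod2 (-0.27; -0.20 without MGT replicate 1 or shNT replicate 2) and Lmod1 (0.23; 0.18 without MGT replicate 1). Tpm2 (0.03), Tmod3 (-0.00) and Lmod2 (0.07) did not pass. The delivered factors were all called lower with shNT than with MGT. Mef2c was 473 ± 4.19 scaled CPM against 741 ± 29.0, Gata4 635 ± 13.4 against 692 ± 12.6 and Tbx5 1551 ± 13.4 against 1809 ± 54.2. The macrophage markers summed to 1231–1288 scaled CPM in the shNT group and to 3205–3301 in the MGT group, with all 5 lower. The part of the factors and of the macrophage markers in these changes was not tested.

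In the Ptbp1 hairpin group against the non-targeting hairpin group, both with MGT, Tpm1 and Tpm2 differed in opposite directions. Tpm2 fell by 0.66 on the log2 scale (SE 0.0433, adjusted p = 1.53e-09 by limma), from 668 ± 21.9 to 423 ± 2.49 scaled CPM, and Tpm1 rose by 0.49 ± 0.0476 (adjusted p = 2.25e-07), from 2394 ± 48.1 to 3364 ± 27.1. The ratio of Tpm1 to Tpm2 per kilobase was 1.62 and 1.59 in the shNT libraries and 3.56 and 3.57 in the shPtbp1 libraries. This ratio was 2.18 and 2.12 in the MGT libraries and 1.90 and 1.92 with control vector. The call of Tpm1 rests on the shNT group as reference: against MGT alone its difference was 0.10 and did not pass. Tmod2 rose by 0.47 ± 0.0975 (adjusted p = 0.00101), from 2.94 ± 0.247 to 4.26 ± 0.516. In all, 4 members were higher and 2 lower, while 34.8% of all genes passed (16.7% higher and 18.1% lower). The calls of Tpm1, Tpm2 and Tmod2 held in each alternative run.

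The remaining changes with the Ptbp1 hairpin were small. Tmod3 was higher by 0.16 (adjusted p = 0.00516), which was lost without shNT replicate 1 (0.12). Tpm3 was higher by 0.13 (adjusted p = 0.0216), lost without shNT replicate 1 (0.10) or shPtbp1 replicate 2 (0.09). Lmod1 was lower by -0.17 (adjusted p = 0.0336), lost without shNT replicate 1 (-0.18) or 2 (-0.16) or shPtbp1 replicate 1 (-0.13). Tpm4 (-0.09), Tmod1 (0.04) and Lmod2 (0.05) did not pass, and Tpm4 was called lower (-0.13) without shPtbp1 replicate 2.

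Against MGT alone the Ptbp1 hairpin group differs by the hairpin and by a second virus, and the comparison shares its shPtbp1 libraries with the one above. Tpm2 was lower here too, by -0.63 ± 0.0433 (adjusted p = 5.98e-10 by limma), with 655 ± 35.8 scaled CPM in the MGT group. Tpm1 was 3140 ± 109 in that group, and its difference of 0.10 ± 0.0476 did not pass (adjusted p = 0.0992), though quantile normalization gave 0.33 and called it. Tpm1 was thus lower in the shNT group than in either of the other MGT groups, while Tpm2 was lower in the shPtbp1 group than in both. In this comparison 2 members were higher and 2 lower, while 44.3% of all genes passed (24.3% higher and 20.0% lower). Tmod3 (0.16) was lost without MGT replicate 1 (0.11), Tpm4 (0.12) without MGT replicate 1 (0.11) or shPtbp1 replicate 2 (0.08), and Tmod1 (-0.21) without MGT replicate 2 (-0.17) or shPtbp1 replicate 2 (-0.15). Tmod2 (0.20) and Lmod2 (0.12) did not pass, but Tmod2 passed without shPtbp1 replicate 2 (0.31) and Lmod2 without shPtbp1 replicate 1 (0.21). Tpm3 (-0.03) and Lmod1 (0.06) did not pass. Of the delivered factors, Mef2c was called lower with shPtbp1 than with MGT, at 529 ± 22.7 scaled CPM against 741 ± 29.0, while Gata4 and Tbx5 did not pass. Against shNT, where it was 473 ± 4.19, Mef2c was called higher. The macrophage markers summed to 1414–1465 scaled CPM with shPtbp1 against 3205–3301 with MGT, with all 5 lower. Their sum was higher than the 1231–1288 with shNT, although against shNT 4 were lower and 1 higher. The part of the factors and of the macrophage markers in the changes of the members was not tested.

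Of the 14 actin filament genes of smooth muscle and other cells, 2 were higher and 7 lower with the Ptbp1 hairpin against the non-targeting hairpin, with a median of -0.09 against -0.00 over all genes. Cnn1 was 20.4 ± 0.414 scaled CPM against 36.2 ± 2.03, Cald1, the caldesmon that binds actin and tropomyosin, 1269 ± 36.2 against 1875 ± 8.56, and Myh10, a non-muscle myosin, 505 ± 31.4 against 705 ± 4.89. Against MGT alone 2 were higher and 4 lower, with Cald1 at 1605 ± 54.3 and Cnn1 at 38.1 ± 0.394 in that group. The sum of the smooth muscle markers was 8910–9538 with shPtbp1 and 9245–9570 with shNT, which overlap. Of the 13 striated muscle partners 6 were higher and 3 lower against shNT, with Tnni3 at 33.7 ± 2.85 against 22.3 ± 0.19. Lower were Acta1, skeletal muscle actin, at 0.894 ± 0.155 against 1.72 ± 0.209, and Tmod4, a tropomodulin of skeletal muscle, at 0.297 ± 0.0959 against 0.709 ± 0.0189, both at low levels. Against MGT alone 3 were higher and 3 lower, with Actc1 lower at 150 ± 10.3 against 229 ± 3.71, Tnni2 lower at 0.499 ± 0.0126 against 1.94 ± 0.0192 and Tnni3 higher, from 20.4 ± 2.09. The cardiomyocyte markers summed to 4356–4630 with shPtbp1 against 3648–3896 with shNT, 4 of 6 higher and none lower, and against MGT alone 4 were higher and 2, Ttn and Pln, lower. Tnnt2 made up most of both sums, at 3960 ± 234 with shPtbp1 and 3307 ± 197 with shNT. The 8 fibroblast markers summed to 12507–13618 with shPtbp1, which overlaps the 12357–12879 with shNT and the 12934–13129 with MGT. Of these markers 4 were higher against shNT, 5 higher against MGT and none lower in either. Among 16 genes for capping, severing and assembly 4 were higher and 4 lower, led by Cap2, an actin monomer binding protein, at 65.2 ± 1.92 against 32.6 ± 1.97.

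The RNA binding proteins known to act on tropomyosin exons or on muscle splicing were followed as a list of 18 genes, 17 of them tested. Against shNT, 4 were higher and 6 lower with the Ptbp1 hairpin, with a median of -0.09, where 34.8% of all genes passed. Ptbp1 itself was lower by -2.18 ± 0.0338 and Ptbp2, its paralog of neurons, higher by 2.15 ± 0.0491, from 29.9 ± 0.726 to 134 ± 1.86 scaled CPM. Esrp2, a splicing factor of epithelia, was 1.33 ± 0.0119 against 2.46 ± 0.656. In fresh cardiomyocytes against fresh fibroblasts 5 were higher and 9 lower, with a median of -0.19. As 76.9% of all genes passed there, this count is near the background. The muscle splicing factors Rbm20 (88.4 ± 2.13 against 11.3 ± 1.1) and Rbm24 (69.7 ± 1.25 against 10.6 ± 0.959) led the list. With MGT against control 8 were higher and 2 lower, with a median of 0.09, where 35.6% of all genes passed. Rbm20 was 22.9 ± 0.359 with MGT against 13.3 ± 1.7 with control vector.

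The patterns most like those of the members other than Tpm2 were found among 9422 genes with a mean of at least 10 scaled CPM, by the root-mean-square difference of centred log2 values over the 12 libraries. This is a description, in which all genes share the same libraries. Nearest to Tmod1 were Alpk3 (0.219), Csrp3 (0.293) and Nrap (0.307), which are genes of the striated muscle cell. Nearest to Lmod2 were Sh3bgr (0.0924), Trdn (0.199) and Smpx (0.218), the first of which went from 7.88 scaled CPM in fresh fibroblasts and 12.6 in control cultures to 85.9 in fresh cardiomyocytes. Lmod1 had the largest differences, with Serpina3h (0.358), Gdf6 (0.38) and Tagln (0.391) nearest. The values were not scaled for spread, so the measure grows with the span of a gene and does not rank the members by closeness of match. Tpm1 lay nearest to Vldlr (0.239), Ptpla (0.2403) and Pdgfa (0.242). Among the members of narrow span, Tpm4 lay nearest to Anxa5 (0.0466), Ap3m1 (0.0493) and Ykt6 (0.0579). The genes nearest to Tpm3 were Fam168a (0.0539), Emd (0.0598) and Dctn5 (0.0623), and those nearest to Tmod3 were Ulk1 (0.0519), Ssbp3 (0.071) and Luc7l2 (0.0725). Tmod2 was nearest to Jarid2 (0.126), Usp11 (0.149) and Slc12a2 (0.156).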

How the data were processed

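Polyadenylated RNA was measured in 12 libraries, 2 in each of 6 groups named by the labels. The authors deposited CPM per gene; the submitters' processing notes name FastQC, TopHat2 2.1.0, HTSeq 0.6.1p1 and mm10, and the annotation and strand setting used in counting were not given in the sources used here. Of the deposited CPM, 100% were whole multiples of 1 read within 0.1 reads, which gave back the reads. A median-of-ratios factor (0.966 to 1.06) scaled each library, and 13977 genes passed a filter of 1 CPM in 2 libraries. Differences of log2(scaled CPM + 0.5) were tested in R 4.3.3 with limma 3.58.1 (eBayes, trend), in a model with a mean for each group, all 12 libraries and 6 residual degrees of freedom. Tests were two-sided, Benjamini-Hochberg adjusted over all genes of a comparison, and called below 0.05. With 2 libraries against 2, an exact permutation test reaches p = 0.333 at best, and none was run. Alternatives, edgeR 4.0.16 on the recovered reads among them, stand in the closing section. Positions are from GENCODE and RefSeq for GRCm38 (mm10), 1-based. The members and lists were chosen with earlier results of these data known. All members were named, up to 3 called genes with the largest change per list and comparison, and the 3 genes most alike per member, which for Tpm2 are not reported here. Tstd2, Tpm3-rs7 and Gm7809 were named because they overlap or match a member. Myh11, Mylk and Tnni2 in the control cultures, Tnnt2 with MGT and with shPtbp1, and Ttn and Pln with shPtbp1 were named after their values were seen. Figures were drawn with matplotlib 3.10.9. Splicing was not analysed here.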

Additional observations from a re-analysis of the deposited data

How the results depend on the processing

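The values were recomputed with quantile normalization, upper-quartile factors or no further scaling, with a pseudocount of 0.1 or 2, without a filter or with one at 5 CPM, with a fit of only the 4 libraries compared, the replicate number as a block, edgeR on the recovered reads, and with each library left out. Of 756 fold changes of the members under them, 693 kept their direction and side of the threshold, 38 lost a call, 15 gained one and 10 changed direction; where a lone library was left in a group, it was assumed to vary like the others. Tpm3 in control cultures against fresh fibroblasts became -0.11 with quantile normalization, and Tmod3 in shNT against MGT 0.0030 with no further scaling. With a library left out, shNT against MGT ranged from -0.028 to 0.083 for Tpm2 and from -0.049 to 0.048 for Tmod3. In shPtbp1 against shNT the range was -0.022 to 0.097 for Tmod1 and -0.046 to 0.14 for Lmod2, and in shPtbp1 against MGT it was -0.077 to 0.016 for Tpm3. None of these 5 ranges belongs to a gene called with all libraries.

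The number of members lower with MGT than with control was 0 with a pseudocount of 0.1 and with no filter, and 0 to 1 with a library left out. For shNT against MGT quantile normalization left 2 lower, and leaving out a library gave 1 to 2 higher and 2 to 3 lower. For shPtbp1 against shNT quantile normalization and no filter left 1 lower, and leaving out a library gave 2 to 4 higher and 1 to 3 lower. For shPtbp1 against MGT there were 4 higher and 1 lower with quantile normalization, 1 and 1 in the fit of 4 libraries, and 0 to 3 higher and 1 to 2 lower with a library left out. The cause of these changes was not tested.

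In the order fresh fibroblasts, fresh cardiomyocytes, control, MGT, shNT and shPtbp1, the Tpm1 share was 24.7%, 58.0%, 51.7%, 53.7%, 45.5% and 56.6% with no division by length and 19.8%, 50.9%, 44.5%, 46.5%, 38.4% and 49.3% per longest coding transcript. The Tmod1 share was 5.99%, 35.4%, 3.68%, 3.56%, 2.98% and 2.74%, and 7.18%, 39.7%, 4.3%, 4.17%, 3.48% and 3.21%.

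Same-numbered libraries did not deviate together in 5 of the 6 comparisons (correlation -0.027 to 0.0154, and 0.162 for shPtbp1 against shNT), so the numbers were not taken to pair them. The replicate block changed no call of a member: with it, Tpm2 in shPtbp1 against shNT was -0.66 and Tpm1 0.49, and the genes called there went from 4870 to 4760. Depth limits Lmod1 in fresh cardiomyocytes most, where a library held 49 reads of it.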
